A study of Mus musculus with 16 samples.

Results

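The genes described here encode phospholipase C (PLC) and adenylyl cyclase enzymes, 6 and 4 genes respectively, and they are 10 of the 54532 genes in each deposited table. They were taken by symbol, as Plcg1, Plcg2, Plcb1, Plcb2, Plcb3, Plcb4, Adcy4, Adcy6, Adcy8 and Adcy9, and all 10 were found. The members were chosen by their FPKM in LPS-treated against saline-treated mice, which were known when the list was drawn up, so their differences in that comparison are given as a description, without a test. RNA-seq was performed in bulk on pulmonary endothelial cells (ECs) of mice 24 h after intratracheal instillation. Male WT C57/BL6J mice aged 8 weeks received saline (n = 4 libraries) or 10 mg/kg lipopolysaccharide (LPS, n = 6 libraries), a component of the bacterial outer membrane. A second experiment used Fgfr1 loxP/loxP mice (n = 3 libraries), whose Fgfr1 alleles are flanked by loxP sites, and their Fgfr1 iΔEC/iΔEC littermates (n = 3 libraries). All received tamoxifen and then 2 mg/kg LPS, so no group of that experiment was free of LPS. The iΔEC/iΔEC mice also carried CreERT2 driven by the VE-cadherin (Cdh5) promoter, which restricts recombination to cells in which that promoter is active. ECs were obtained from digested lung by removing cells with CD45, the product of Ptprc, on magnetic beads and then selecting cells with CD31, the product of Pecam1.

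PLC enzymes cleave the membrane lipid PIP2 into IP3, which releases calcium from the endoplasmic reticulum, and diacylglycerol, which activates protein kinase C. The gamma isozymes are switched on by tyrosine kinases such as the FGF and VEGF receptors, and the beta isozymes by G protein-coupled receptors through Gq family and beta-gamma subunits. Adenylyl cyclases make cyclic AMP (cAMP) under the control of Gs and Gi, and in ECs cAMP is known to strengthen the junctional barrier, whereas calcium release and protein kinase C can loosen it.

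The saline libraries held 13478726 to 18807007 reads on genes, with 17840221 to 19043015 per LPS library, 15969575 to 17002788 per loxP/loxP library and 16642177 to 16943522 per iΔEC/iΔEC library. Levels are given in FPKM, in which fragment numbers are divided by gene length, so that genes can be compared, and by library size, which in these values carried a median-of-ratios adjustment. Differences are given on the scale of log2(FPKM + 1), which understates the change of genes with low values. Of the 10 endothelial markers 0 was at 0 in any library. That alone does not show how pure the cells were, since the summed epithelial markers averaged 1960 FPKM in saline. Pecam1 was at 400 ± 81.5 FPKM (SD, n = 4) in saline and 358 ± 76.8 (SD, n = 6) in LPS. Cldn5, a tight junction gene and the most abundant marker of the list, was at 1533 ± 893 and 1058 ± 442 FPKM. Ptprc was read in every library in spite of the CD45 depletion, at 3.53 to 11.0 FPKM in saline and 22.1 to 52.7 FPKM in LPS. Among the LPS libraries, LPS 1 had the lowest summed endothelial markers (1434 FPKM, against 2148 to 3382 in the others) and the highest summed leukocyte markers (1554 FPKM), although LPS 2 was close in the latter (1408 FPKM) and LPS 6 was the lowest (641 FPKM, with the next at 1049).

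The promoters of Plcg1 and Plcg2 are shown because these genes encode the pair of PLC gamma isozymes and their transcripts differed in opposite directions between LPS and saline. Each is the stretch of 250 bases before the RefSeq start of the gene on GRCm38.p6, written 5′ to 3′ on the strand of the gene. Capitals mark GC boxes (GGGCGG, or CCGCCC on the other strand) and an E-box (CACGTG, the same on both strands). Plcg1 lies at chr2:160731060-160731309 (+ strand) and Plcg2 at chr8:117498025-117498274 (+ strand).
Plcg1: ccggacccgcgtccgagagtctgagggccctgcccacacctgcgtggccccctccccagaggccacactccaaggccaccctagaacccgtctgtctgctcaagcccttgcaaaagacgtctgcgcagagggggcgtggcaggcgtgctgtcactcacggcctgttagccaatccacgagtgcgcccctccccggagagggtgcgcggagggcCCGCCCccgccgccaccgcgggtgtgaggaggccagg
Plcg2: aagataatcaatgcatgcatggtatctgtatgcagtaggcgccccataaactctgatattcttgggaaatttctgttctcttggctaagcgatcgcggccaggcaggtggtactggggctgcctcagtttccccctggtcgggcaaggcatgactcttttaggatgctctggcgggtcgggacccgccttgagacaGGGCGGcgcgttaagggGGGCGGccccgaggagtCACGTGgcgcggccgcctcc
The Plcg1 stretch held 1 GC box, a GC content of 71.2% and 21 CpG. The Plcg2 stretch held 2 GC boxes and 1 E-box, none of them overlapping, with a GC content of 59.6% and 17 CpG. The median over 32851 promoters of the same length was 52.4% GC and 6 CpG. RefSeq windows were matched for 8 of the 10 genes (9 windows, Plcb4 having 2), with no entry for Adcy6 and Adcy8. A GC box was found on either strand in 6 of the 9 windows and in 32.7% of all promoters. The E-box was found in the Plcg2 window alone (6.02% of all promoters), the AP-1 letters TGACTCA in that of Plcb3 (4.46%) and the ETS letters CCGGAAG in that of Plcb2 (6.91%). The PU.1 type letters GAGGAAGT (2.44% of all promoters) and the cAMP response element TGACGTCA (1.55%) were in 0 of the 9 windows. These are matches of letters within the windows and do not show that a factor binds.

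In LPS-treated mice Plcg2 was higher and the other 9 genes were lower in mean level than in saline-treated mice on the deposited scale, whereas scaled on the endothelial markers 4 genes were higher and 6 lower. The LPS and saline libraries did not overlap in 7 genes, with Plcg1, Plcb3, Adcy4, Adcy6, Adcy8 and Adcy9 lower and Plcg2 higher in every LPS library. Plcb1, Plcb2 and Plcb4 overlapped. Over all 14893 genes tested, the groups did not overlap in 39.4%, namely 16.7% with LPS lower and 22.7% with LPS higher, and 53.2% of genes were called, 23.7% lower and 29.5% higher. These shares are printed for orientation only, since the members were chosen with this comparison in view. The median log2 difference of the 10 genes was -0.71, beside 0.013 over all genes tested. In a bulk library, fewer cells of a type and less RNA per cell cannot be told apart.

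**Figure D1:**
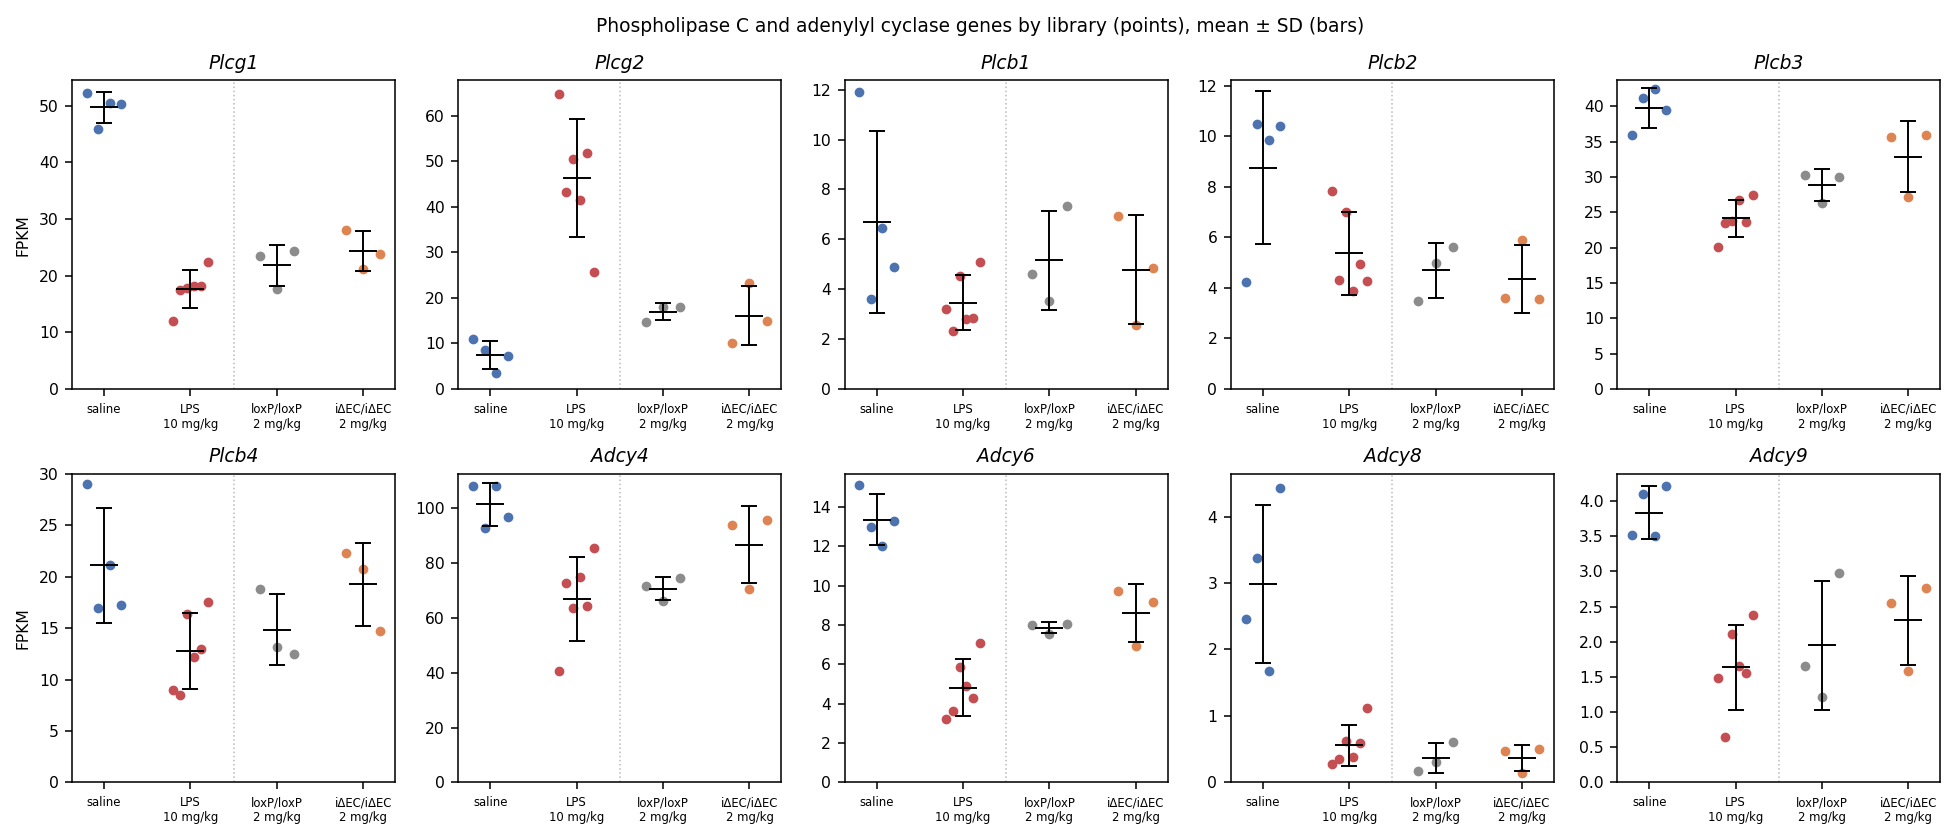
FPKM (vertical axes, each from 0) of the 10 genes in each library (points, in order of replicate number), with the mean and SD of each group as bars. The dotted line separates the 2 tables, which were normalized separately. Plcg2 is higher in all 6 LPS libraries (25.7 to 64.7 FPKM) than in the 4 saline libraries (3.49 to 10.9), and Plcg1 is lower (12.0 to 22.4 against 45.9 to 52.3).

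Plcg1 (ENSMUSG00000016933, chr2:160731300-160775760, + strand) encodes PLC gamma 1, the isozyme that couples FGFR1 and VEGFR2 to calcium release in ECs. It was at 52.3, 45.9, 50.5 and 50.3 FPKM in saline 1 to 4 and at 12.0 to 22.4 FPKM in the LPS libraries, with a median of 18.0. The groups were far apart, the saline libraries lay within a narrow band (coefficient of variation 5.39%), and LPS 1 was the lowest and LPS 6 the highest of the treated libraries. The mean went from 49.7 ± 2.68 (SD, n = 4) to 17.7 ± 3.30 (SD, n = 6), which was 2.81-fold lower and -1.46 ± 0.14 (SE) on the log2 scale. It was -0.76 ± 0.17 when the libraries were scaled on the endothelial markers. Plcg1 shares bases with Zhx3 on the opposite strand, which had 322 to 1826 reads in these libraries beside 1741 to 7988 for Plcg1. Whether the counting used strand is not given in the sources used here.

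Plcg2 (ENSMUSG00000034330, chr8:117498291-117635142, + strand) encodes PLC gamma 2, known best from B cells, platelets and myeloid cells, where it acts behind immune receptors. It was at 10.9, 8.56, 3.49 and 7.15 FPKM in saline 1 to 4 and at 25.7 to 64.7 FPKM in LPS, with a median of 46.9. Saline 3 was the lowest saline library and LPS 6 the lowest LPS library, while LPS 1 was the highest of all. The mean level was 6.15-fold higher in LPS (7.51 ± 3.08 to 46.2 ± 13.0 FPKM, SD), with a log2 difference of 2.51 ± 0.29 (SE), and 3.16 ± 0.40 when scaled on the endothelial markers. The ratio of Plcg2 to Plcg1 was 0.151 ± 0.0612 in saline (0.0691 to 0.208) and 2.83 ± 1.40 in LPS (1.15 to 5.38), so Plcg2 exceeded Plcg1 in all 6 LPS libraries and in 0 of the 4 saline libraries.

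The leukocyte markers moved with Plcg2. All 6 of 6 markers of that list rose in LPS (limma, Benjamini-Hochberg adjusted over all genes), beside 29.5% of all genes. Their summed level was 227, 156, 76.5 and 138 FPKM in saline 1 to 4 and 1554, 1408, 1049, 1096, 1191 and 641 FPKM in LPS 1 to 6, with 0 markers at 0. Coro1a, an actin-binding gene of leukocytes and the most abundant of them, was at 47.3 ± 17.9 FPKM in saline and 447 ± 134 in LPS. The ratio of Plcg2 to Ptprc was 1.08 ± 0.112 in saline (0.987 to 1.21) and 1.36 ± 0.191 in LPS (1.16 to 1.58), ranges that overlapped, while each gene on its own did not. Saline 3 had the lowest and saline 1 the highest level of both genes among saline libraries, and LPS 6 and LPS 1 did so among LPS libraries. In relative terms the mean of Coro1a rose by more than that of Plcg2, so such a ratio depends on the leukocyte gene chosen. No ratio of Plcg2 to Coro1a is given here. The part of leukocyte RNA in the Plcg2 difference was not tested.

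**Figure D2:**
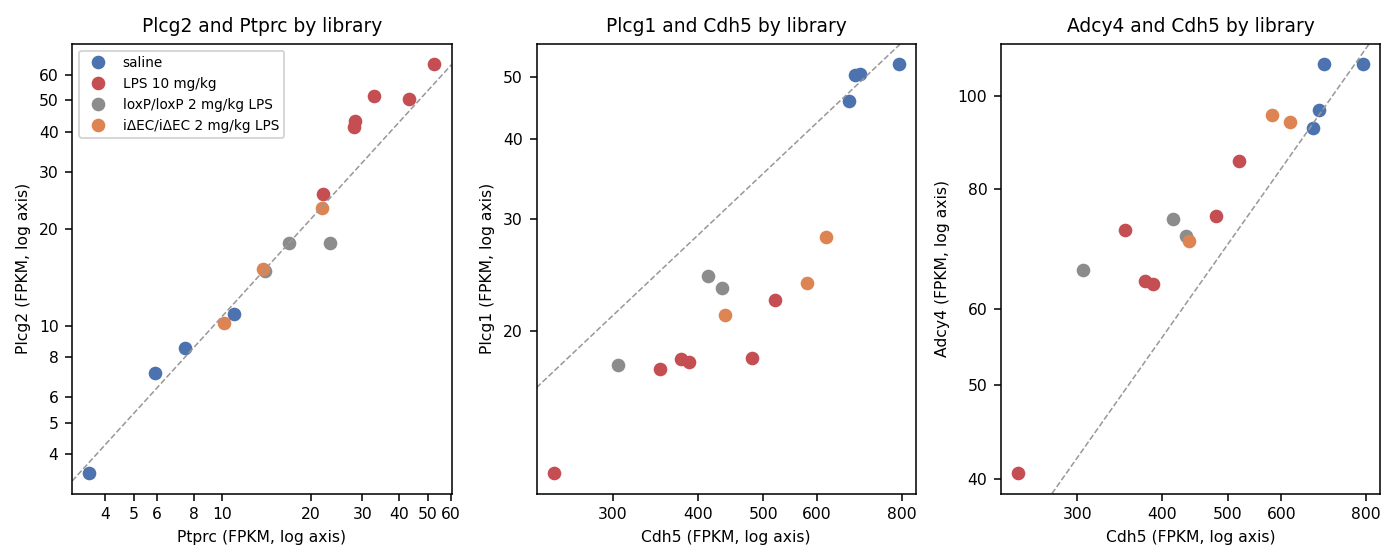
FPKM of Plcg2 against Ptprc, Plcg1 against Cdh5 and Adcy4 against Cdh5 (log axes), 1 point per library. The dashed line is the median saline ratio. The LPS points of Plcg2 lie above the line, at 1.16 to 1.58 per Ptprc against 0.987 to 1.21 in saline, and the LPS points of Plcg1 lie under it at 0.0378 to 0.0496 per Cdh5, against 0.0660 to 0.0737 in saline.

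Cdh5, the gene of VE-cadherin, was itself lower in LPS, at 394 ± 97.6 FPKM against 710 ± 56.0 in saline (limma log2 difference -0.88, Benjamini-Hochberg adjusted p = 0.00575). Of the endothelial list 6 of 10 markers fell and 0 rose. Its summed level was 5429, 3276, 4066 and 3391 FPKM in saline 1 to 4 and 1434, 3361, 2148, 3382, 2551 and 3105 FPKM in LPS 1 to 6. Per Cdh5, Plcg1 was still lower in every LPS library, at 0.0456 ± 0.00449 against 0.0703 ± 0.00360. Per Pecam1 it was at 0.0499 ± 0.00519 in LPS and 0.127 ± 0.0196 in saline, again without overlap. The ratio of Adcy6 to Cdh5 also stayed lower, at 0.0123 ± 0.00197 against 0.0188 ± 0.00103, with groups apart. The ratio of Adcy8 to Cdh5 was at 0.000811 to 0.00216 in LPS and 0.00241 to 0.00649 in saline, apart as well. Adcy4 had the opposite order, at 0.171 ± 0.0178 per Cdh5 in LPS and 0.143 ± 0.00837 in saline, and the lowest LPS value (0.156) was just above the highest saline value (0.155). That order rests on Cdh5 as the gene divided by. The mean of Pecam1 differed less between LPS and saline than that of Cdh5, and no ratio of Adcy4 to Pecam1 is given here. The ratios of Plcb3 (0.0634 ± 0.0104 against 0.0565 ± 0.00753) and Plcb4 (0.0328 ± 0.00687 against 0.0295 ± 0.00530) to Cdh5 overlapped between the groups. Plcg2, Plcb1, Plcb2 and Adcy9 were not set against Cdh5 in this comparison. The share of all genes with LPS and saline apart per Cdh5 is not given here, so nothing is read from how many members were apart. The part of the endothelial share of the RNA in the member differences was not tested.

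The beta isozymes receive signals from G protein-coupled receptors. Plcb3 (chr19:6953714-6969759, - strand), which responds strongly to beta-gamma subunits, was the most abundant of the 4 in both groups. It was at 36.0, 41.2, 42.4 and 39.5 FPKM in saline 1 to 4 and at 20.1 to 27.4 FPKM in LPS, with a median of 23.7. All LPS libraries lay under all saline libraries, and the mean was 24.2 ± 2.62 against 39.8 ± 2.78, a log2 difference of -0.70 ± 0.11 (SE) that was 0.0062 ± 0.19 when scaled on the endothelial markers.

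Plcb4 (chr2:135659011-136014593, + strand), known from neurons of the retina and cerebellum, was at 29.0, 17.0, 21.1 and 17.3 FPKM in saline 1 to 4 and at 8.53 to 17.5 FPKM in LPS, with a median of 12.6. Only LPS 6 reached into the saline range, over saline 2 and saline 4. The log2 difference was -0.70 ± 0.22 (SE), and -0.0093 ± 0.24 when scaled on the endothelial markers.

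Plcb1 (chr2:134786067-135475258, + strand), a Gq effector found in many tissues, was at 11.9, 3.61, 6.44 and 4.88 FPKM in saline 1 to 4 and at 2.33 to 5.11 FPKM in LPS, with a median of 3.01. It varied most among saline libraries of the 10 genes, with a coefficient of variation of 54.4%, because saline 1 was far above the others. Its log2 difference was -0.71 ± 0.27 (SE), within overlapping groups, -0.43 without saline 1 and -0.11 ± 0.29 when scaled on the endothelial markers.

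Plcb2 (chr2:118707517-118728438, - strand) is the isozyme known from blood cells and taste cells. It was at 4.23, 10.5, 9.87 and 10.4 FPKM in saline 1 to 4 and at 3.86 to 7.82 FPKM in LPS, with a median of 4.63. Saline 1 alone lay within the LPS range. The log2 difference was -0.58 ± 0.25 (SE), -0.86 without saline 1, and 0.057 ± 0.36 when scaled on the endothelial markers. The ratio of Plcb2 to Ptprc was 0.157 ± 0.0193 in LPS (0.137 to 0.193) and 1.59 ± 0.994 in saline (0.385 to 2.80), and LPS 1 was the highest LPS library in both genes. The lymphocyte markers had the same direction as Plcb2: 3 of 5 tested fell and 0 rose, and the list's most abundant gene, the B cell receptor component Cd79a, was at 54.6 FPKM in saline and 16.7 in LPS on average. Their summed level was 104, 134, 24.0 and 112 FPKM in saline 1 to 4 and 12.1 to 48.4 FPKM in LPS, with 0 markers at 0 in these libraries. Among the saline libraries the order differed, with saline 1 the lowest in Plcb2 and saline 3 the lowest in the lymphocyte sum. The part of lymphocyte RNA in the Plcb2 difference was not tested.

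Adcy4 (chr14:55769057-55784095, - strand) encodes an adenylyl cyclase that calcium does not regulate directly, and it was the most abundant of the 10 genes in all 4 groups. It was at 108, 92.8, 108 and 96.8 FPKM in saline 1 to 4 and at 40.5 to 85.6 FPKM in LPS, with a median of 68.5. LPS 1 was the lowest by a wide gap and LPS 6 the highest, just under the saline range. The mean went from 101 ± 7.63 to 67.0 ± 15.2 FPKM, a log2 difference of -0.62 ± 0.19 (SE) that was 0.098 ± 0.15 when scaled on the endothelial markers.

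Adcy6 (chr15:98589973-98610076, - strand) encodes a cyclase that calcium inhibits, with a known role in the endothelial barrier. It was at 15.1, 13.0, 12.0 and 13.3 FPKM in saline 1 to 4 and at 3.20 to 7.07 FPKM in LPS, with a median of 4.60. Every LPS library was clearly under every saline library. The mean level was 2.77-fold lower in LPS (4.82 ± 1.45 against 13.4 ± 1.30 FPKM), with a log2 difference of -1.33 ± 0.18 (SE), and -0.69 ± 0.20 when scaled on the endothelial markers.

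Adcy8 (chr15:64697084-64922296, - strand), which calcium and calmodulin stimulate and which is known mainly from the brain, was the least abundant of the 10. It was at 2.46, 3.37, 1.68 and 4.43 FPKM in saline 1 to 4 and at 0.280 to 1.12 FPKM in LPS, with a median of 0.492. These levels rest on 244 to 711 reads per saline library and 42 to 174 per LPS library, and the groups did not overlap. The mean was 5.33-fold lower in LPS, the largest relative gap among the 9 lower genes, but the log2 difference of FPKM + 1 was only -1.32 ± 0.21 (SE), since the added 1 exceeds the LPS level. From the recovered reads the difference was -2.54 ± 0.37 on the log2 scale.

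Adcy9 (chr16:4287529-4420498, - strand) encodes a cyclase with little response to forskolin. It was at 3.52, 4.10, 3.50 and 4.21 FPKM in saline 1 to 4 and at 0.640 to 2.38 FPKM in LPS, with a median of 1.61. The groups were apart, and LPS 2 was the lowest. The mean was 2.34-fold lower, with a log2 difference of -0.90 ± 0.18 (SE), and -0.38 ± 0.24 when scaled on the endothelial markers.

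**Figure D3:**
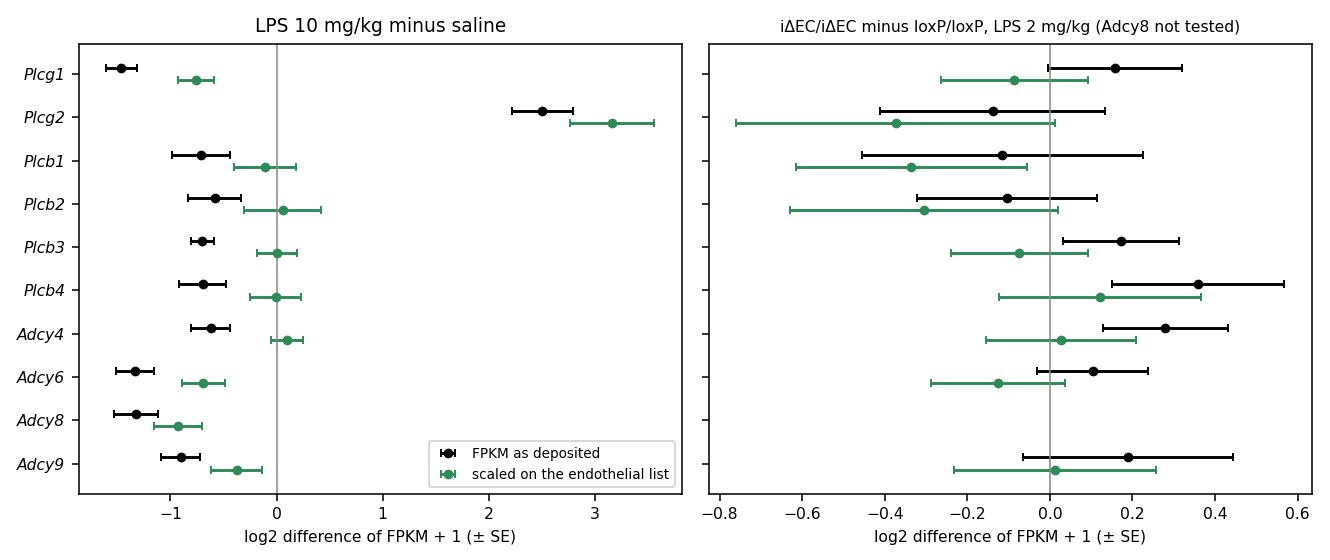
Log2 difference of FPKM + 1 (points) with its standard error (bars), on the deposited scale (black) and scaled on the endothelial markers (green). At left, LPS minus saline for the 10 genes: Plcg2 is at 2.51 and the other genes at -1.46 to -0.58, and Plcb2, Plcb3 and Adcy4 change sign with the endothelial scaling (0.057, 0.0062 and 0.098). At right, on a narrower axis, iΔEC/iΔEC minus loxP/loxP for the 9 genes tested, without Adcy8.

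The order of levels changed with treatment. In saline the order was Adcy4, Plcg1, Plcb3, Plcb4, Adcy6, Plcb2, Plcg2, Plcb1, Adcy9 and Adcy8. Down to Plcb2 each neighbour in this order was separate in range from the next, and from Plcb2 on neighbours overlapped. In LPS it was Adcy4, Plcg2, Plcb3, Plcg1, Plcb4, Plcb2, Adcy6, Plcb1, Adcy9 and Adcy8, and only Plcb4 and Plcb2 were neighbours with separate ranges. Of the FPKM summed over the 6 PLC genes (134 ± 7.64 in saline and 110 ± 8.51 in LPS), Plcg1 made up 37.2% ± 1.27 in saline and 16.3% ± 3.79 in LPS. Plcg2 made up 5.60% ± 2.16 and 41.8% ± 9.83. The share of Plcb3 was 29.9% ± 3.39 and 22.2% ± 3.63. Of the FPKM summed over the 4 cyclase genes (121 ± 6.86 and 74.0 ± 16.7), Adcy4 made up 83.3% ± 2.14 in saline and 90.4% ± 2.17 in LPS, and Adcy6 11.0% ± 0.946 and 6.53% ± 1.21. These shares are within a library and do not depend on how libraries are scaled to each other.

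**Figure D4:**
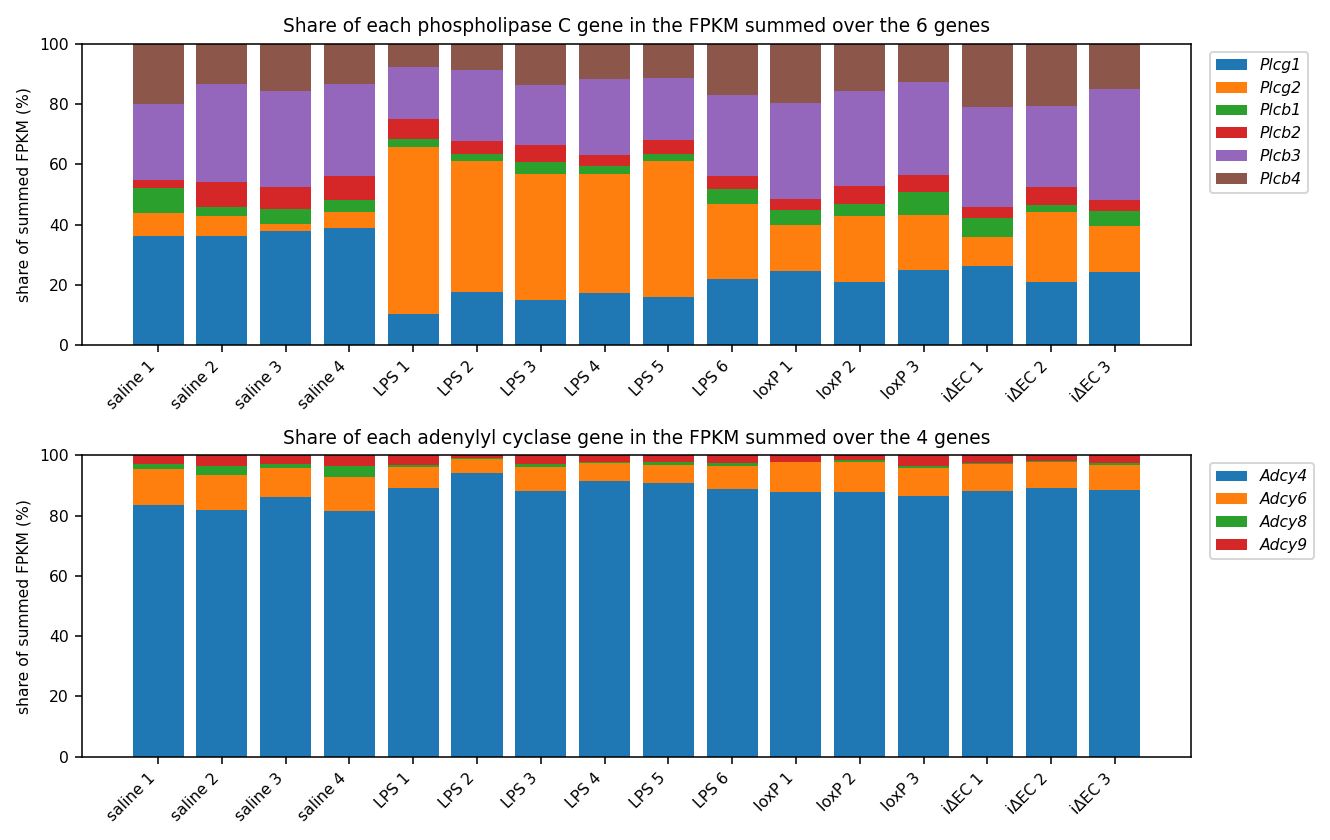
Share of each gene (coloured segments, %) in the FPKM summed over the 6 PLC genes (top) and over the 4 adenylyl cyclase genes (bottom), 1 bar per library. Plcg2 takes 25.1 to 55.4% of the PLC sum in the LPS libraries and 2.61 to 7.52% in saline, and Adcy4 takes most of the cyclase sum in every library.

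Many members had the same highest LPS library, but they did not share an order of libraries. LPS 2 was the lowest LPS library in Plcb1, Plcb4 and Adcy9. The share of all genes ordered in these ways is not given here. LPS 6, which had the lowest leukocyte sum of the treated libraries, was the highest LPS library in 8 of the 10 genes (all but Plcg2, where it was lowest, and Plcb2). LPS 1 was the lowest in 5 (Plcg1, Plcb3, Adcy4, Adcy6 and Adcy8) and the highest in Plcg2 and Plcb2. Without LPS 1 the log2 difference of Plcg1 was -1.36, close to that with all libraries.

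The genes whose profile over the 10 libraries of this experiment was most like that of Plcg1 were Enpp2, Fgf1, Pcsk5, Cadm1 and Npr1. Their mean absolute distance from it, on centred log2(FPKM + 1), was 0.0763, 0.0816, 0.0973, 0.0990 and 0.1003. Npr1, the most abundant of them, was at 75.2 ± 5.88 FPKM in saline and 26.6 ± 6.37 in LPS, and Fgf1 was at 27.4 ± 2.60 and 9.60 ± 2.51. Those most like Plcg2 were Fermt3, Otulinl, Arhgap30, Ikzf1 and Arhgap9, at distances of 0.121, 0.141, 0.142, 0.148 and 0.161. Fermt3 was at 13.3 ± 4.64 FPKM in saline and 90.4 ± 23.8 in LPS, and Ikzf1 at 4.76 ± 2.40 and 31.6 ± 12.3.

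Of 122 other genes of the 2 pathways, taken by what they encode, 98 were abundant enough to test. In LPS 44 of them (44.9%) fell and 21 (21.4%) rose by limma, beside 23.7% and 29.5% of all genes. Scaled on the endothelial markers 9 fell and 30 rose, while over all 15009 genes tested 784 fell and 7285 rose. That scaling moved the median of all genes to 0.57. Kdr, which fell from 125 to 38.7 FPKM, is both an endothelial marker used for the scaling and a receptor in the pathway lists. The median log2 difference of the 98 genes was -0.42 on the deposited scale. The lists were drawn up with earlier results of these data known, so these shares are given as a description. The p-values measure the spread between these libraries, as the labels do not say that each came from a separate mouse.

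Among the other members of the enzyme families, Adcy7, a cyclase known from blood cells, rose from 6.36 ± 2.43 to 26.7 ± 10.8 FPKM, with a log2 difference of 1.89 ± 0.31 (SE). Adcy2 (-0.83 ± 0.19) and Adcy3 (-0.38 ± 0.14) fell, which left 1 of the 4 tested uncalled. Of the other PLC genes 4 of 9 were tested. Plcl2, which encodes a PLC-like protein without catalytic activity, rose (1.04 ± 0.22), and Plcl1 (-0.43 ± 0.14), also inactive, and Plcd3 (-0.42 ± 0.16) fell.

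Upstream of the enzymes, 10 of 17 tested receptors that act through PLC fell and 3 rose. Ednrb, the endothelin B receptor, fell from 63.4 ± 17.3 to 11.3 ± 4.28 FPKM (log2 difference -2.44 ± 0.28), and Fgfr4 fell from 3.44 ± 1.57 to 0.320 ± 0.0818 (-1.68 ± 0.20). Ptafr, the receptor of platelet-activating factor, rose from 0.847 ± 0.437 to 55.0 ± 27.0 FPKM (4.82 ± 0.31), and the nucleotide receptor P2ry2 rose by 1.46 ± 0.34. Of 12 receptors and accessory proteins acting through cyclase, 6 rose and 2 fell. Adora2b, an adenosine receptor, rose from 0.597 ± 0.356 to 18.0 ± 5.93 FPKM (3.54 ± 0.22), and the prostacyclin receptor Ptgir from 0.665 ± 0.361 to 7.81 ± 2.11 (2.40 ± 0.20). Adrb1 (-0.87 ± 0.23), a beta adrenergic receptor, and Vipr2 (-0.71 ± 0.17), a VIP receptor, fell. Of 10 G protein alpha subunits 5 fell and 3 rose. Gnao1 (-1.15 ± 0.18), of the Gi family, and Gna14 (-0.89 ± 0.24), of the Gq family, fell, and Gna15 (1.88 ± 0.17), the Gq family member of blood cells, and Gnai2 (0.64 ± 0.19) rose.

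Downstream, 10 of 17 targets of IP3 and diacylglycerol fell and 4 rose. Prkcd, a protein kinase C, rose from 10.1 ± 3.57 to 79.9 ± 24.8 FPKM (2.86 ± 0.26), and Rasgrp1, a diacylglycerol-activated Ras exchange factor, rose by 1.82 ± 0.33. Rasgrp3, a relative of it known from ECs, fell from 60.7 ± 16.3 to 26.5 ± 6.55 FPKM (-1.16 ± 0.23). Of the 10 genes tested that remove diacylglycerol or IP3, 7 fell and 0 rose, among them the kinases Dgke (-1.10 ± 0.14) and Itpkb (-1.03 ± 0.18). Scaled on the endothelial markers 0 of these 10 fell, beside 784 of all 15009 genes tested. Among 14 cAMP effectors 2 fell, the CREB coactivator Crtc1 (-0.62 ± 0.12) and the Rap exchange factor Rapgef4 (-0.47 ± 0.14), and Atf1 (0.65 ± 0.14), a CREB relative, rose. Of 10 cAMP phosphodiesterases 4 fell and 2 rose. Pde3a fell from 27.4 ± 3.23 to 7.02 ± 2.42 FPKM (-1.87 ± 0.21) and Pde8b by 1.64 on the log2 scale, while Pde1b (1.66 ± 0.36) and Pde4b (0.95 ± 0.32) rose.

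Of the genes named above from these lists, Plcl1 (0.09) and Rapgef4 (0.14) changed sign when scaled on the endothelial markers. Plcl1, Plcd3, Adcy3, Gna14, Adrb1, Vipr2, Rasgrp3, Dgke, Itpkb, Crtc1 and Rapgef4 lost their call there. With quantile normalization Gnai2 (0.055), Pde4b (0.63), Plcd3 (-0.34) and Adcy3 (-0.28) lost theirs.

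**Figure D5:**
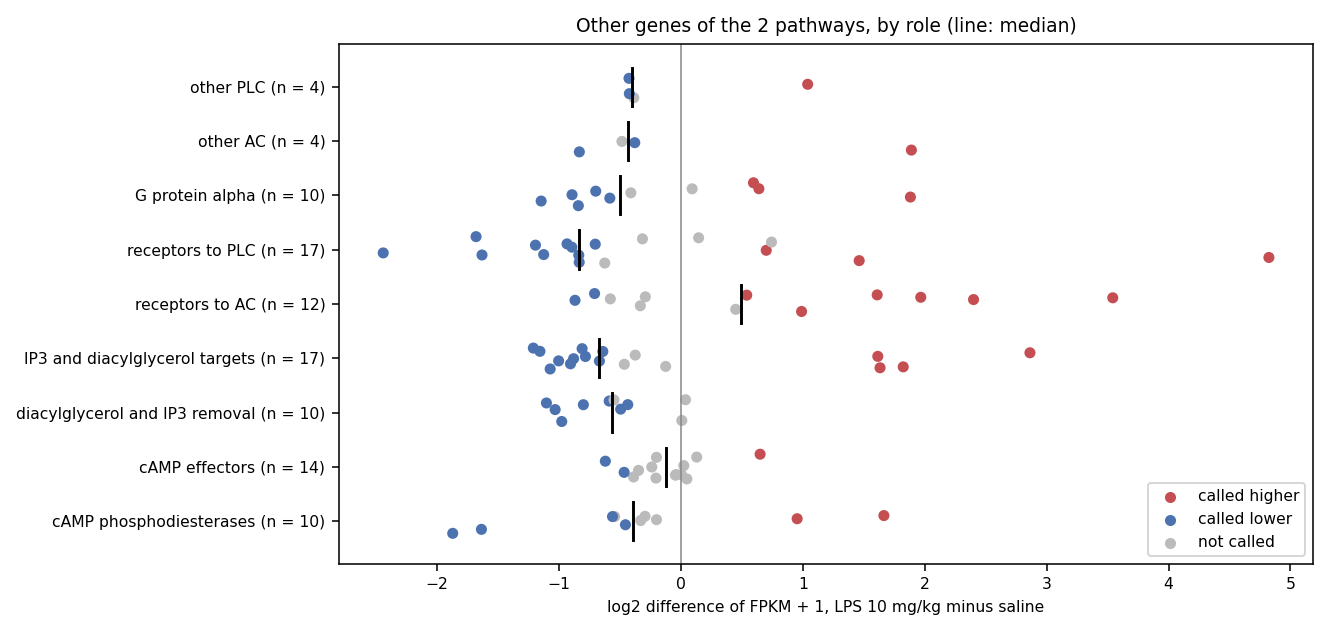
Log2 difference of FPKM + 1 in LPS minus saline (horizontal axis) of the tested genes of 9 lists (rows), coloured by limma call on the deposited scale, with the median of each list as a line. The receptors to adenylyl cyclase have the highest median (0.49) and the receptors to PLC the lowest (-0.83). With endothelial scaling the called genes are 30 higher and 9 lower, beside 7285 and 784 of all 15009 genes tested.

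Other cell types also differed between LPS and saline libraries. Of the neutrophil markers 6 of 8 rose, with S100a9 as the most abundant gene and summed levels of 1401, 74.0, 311 and 78.2 FPKM in saline 1 to 4 and 1290 to 6653 FPKM in LPS. Ly6g was at 0 in saline 4. Of the macrophage markers 6 of 8 rose and 1 fell, with Csf1r as the most abundant and summed levels of 21.7 to 43.7 FPKM in saline and 315 to 699 in LPS. Marco was at 0 in saline 1. Platelet markers rose in 3 of 5 tested, with Ppbp the most abundant in saline, summed levels of 22.4 to 51.0 and 52.8 to 148 FPKM, and Gp1bb at 0 in all libraries. Erythroid markers rose in 3 of 4 tested, with Hba-a1 the most abundant in saline and summed levels of 6.36 to 25.6 and 21.0 to 74.3 FPKM, although globin paralogs can share reads. Fibroblast markers fell in 4 of 6 (Col3a1 most abundant, 36.1 to 62.4 and 19.3 to 45.8 FPKM summed, Lum at 0 in saline 3). Mural markers fell in 2 of 7 (Acta2 most abundant, 26.6 to 121 and 33.1 to 58.8 FPKM). Epithelial markers fell in 3 of 10 and rose in 1 (Sftpc most abundant, 1164 to 3010 and 325 to 1128 FPKM). Their part in the member differences was not tested.

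The second experiment compared Fgfr1 iΔEC/iΔEC with loxP/loxP mice under 2 mg/kg LPS, a comparison not used to choose the members. Fgfr1, the targeted gene, was at 2.90, 2.91 and 2.59 FPKM in loxP/loxP 1 to 3 and at 0.683, 1.41 and 1.15 FPKM in iΔEC/iΔEC 1 to 3. These values count the whole gene and not the deleted part. Every iΔEC/iΔEC library was under every loxP/loxP library, with a log2 difference of -0.88 ± 0.16 (SE), an unadjusted limma p of 0.00103 and a Benjamini-Hochberg adjusted p of 0.960. Over all 14944 genes tested, limma called 0 (0.0%), with 663 (4.44%) at an unadjusted p under 0.05, and limma-voom on the recovered reads also called 0 (619 at an unadjusted p under 0.05). The groups did not overlap in 10.2% of all genes, with iΔEC/iΔEC higher in 6.1% and lower in 4.07%.

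None of the 9 members tested was called, and the groups overlapped in all 10. Adcy8 was not tested, because its mean was under 0.5 FPKM. An exact permutation test of 3 libraries against 3 cannot go under 0.1, and libraries of the same replicate number deviated together, so the number of pairs in the same direction is given too where all 3 agreed. The pairing was inferred from these same data, as the labels do not say what the numbers mark. The 95% intervals and permutation tests leave the pairing out unless the replicate block is named. With the replicate block, limma called 0 members as well.

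Plcg1 was at 23.4, 17.7 and 24.4 FPKM in loxP/loxP 1 to 3 and at 28.1, 21.2 and 23.8 FPKM in iΔEC/iΔEC 1 to 3. The groups overlapped and the log2 difference was 0.16 (95% interval -0.23 to 0.55, exact permutation p = 0.5). Scaled on the endothelial markers it was -0.086. Plcg2 was at 14.8, 18.1 and 18.1 FPKM and at 10.2, 23.2 and 15.0 FPKM, with a log2 difference of -0.14 (-0.79 to 0.52, exact permutation p = 0.8). The iΔEC/iΔEC libraries spread around the loxP/loxP libraries, and Ptprc was ordered the same way (10.1, 21.8 and 13.8 FPKM in iΔEC/iΔEC 1 to 3). The ratio of Plcg2 to Ptprc was 0.973 ± 0.168 in loxP/loxP and 1.05 ± 0.0430 in iΔEC/iΔEC.

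Plcb4, Adcy4 and Plcb3 were higher in iΔEC/iΔEC in 3 of 3 numbered pairs. The share of all genes that were so is not given here. Plcb4 was at 18.8, 13.2 and 12.5 FPKM in loxP/loxP 1 to 3 and at 22.3, 20.8 and 14.7 FPKM in iΔEC/iΔEC 1 to 3, a log2 difference of 0.36 (95% interval -0.14 to 0.86, exact permutation p = 0.2). Adcy4 was at 71.6, 66.0 and 74.6 FPKM and at 94.0, 70.7 and 95.6 FPKM, with a log2 difference of 0.28 (-0.08 to 0.64, exact permutation p = 0.3). Only iΔEC/iΔEC 2 fell within the loxP/loxP range of Adcy4. Plcb3 was at 30.3, 26.3 and 30.0 FPKM and at 35.6, 27.1 and 35.9 FPKM, with a log2 difference of 0.17 (-0.17 to 0.51, exact permutation p = 0.3). Cdh5 was also higher in 3 of 3 pairs. In loxP/loxP 1 to 3 it was at 434, 306 and 414 FPKM. In iΔEC/iΔEC 1 to 3 it was at 618, 438 and 581 FPKM. The endothelial list had a median log2 difference of 0.29 and the epithelial list of -0.84, with 0 markers of either called. The summed epithelial markers were at 1045 to 3084 FPKM in loxP/loxP and 527 to 1236 FPKM in iΔEC/iΔEC. The part of epithelial content in the member values was not tested. Scaled on the endothelial markers the log2 difference was 0.12 for Plcb4, 0.028 for Adcy4 and -0.075 for Plcb3. Per Cdh5, 4 of the 10 members were lower in every iΔEC/iΔEC library than in every loxP/loxP library, as were 28.0% of all genes tested, while 0.12% were higher. These were Plcg1 (0.0409 to 0.0484 against 0.0539 to 0.0588), Plcb3 (0.0576 to 0.0619 against 0.0699 to 0.0860), Adcy4 (0.152 to 0.1646 against 0.1649 to 0.216) and Adcy6 (0.0157 to 0.0158 against 0.0184 to 0.0247). The ratios of the other 6 overlapped, that of Plcb4 at 0.0254 to 0.0475 against 0.0302 to 0.0434, and the part of endothelial content in these differences was not tested. With the replicate block the interval of Plcb4 lay above 0 (0.046 to 0.67), with an unadjusted limma p of 0.0323 and a Benjamini-Hochberg adjusted p of 0.619. That adjusted p was the lowest among the members tested. The blocked interval was -0.016 to 0.58 for Adcy4 and -0.079 to 0.42 for Plcb3.

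Adcy6, Adcy9, Plcb1 and Plcb2 differed less in relation to their SE than Plcb4, Adcy4 and Plcb3 did. Adcy6 was at 7.99, 7.55 and 8.05 FPKM in loxP/loxP 1 to 3. In iΔEC/iΔEC 1 to 3 it was at 9.73, 6.92 and 9.16 FPKM. Its log2 difference was 0.10 (95% interval -0.22 to 0.43), and -0.13 when scaled on the endothelial markers. Adcy9 was at 1.66, 1.21 and 2.98 FPKM and at 2.55, 1.59 and 2.77 FPKM, with a log2 difference of 0.19 (-0.42 to 0.80). Adcy8 lay between 0.145 and 0.608 FPKM in these 6 libraries, on 20 to 90 reads. Plcb1 was at 4.62, 3.51 and 7.33 FPKM and at 6.93, 2.58 and 4.84 FPKM, a log2 difference of -0.12 (-0.93 to 0.70). Plcb2 was at 3.50, 4.99 and 5.62 FPKM and at 3.59, 5.89 and 3.56 FPKM, a log2 difference of -0.10 (-0.63 to 0.42). These intervals do not show that the genotypes are alike. iΔEC/iΔEC 2 was the lowest library of its group in 7 of the 10 genes and loxP/loxP 2 in 6. In iΔEC/iΔEC 2 the summed endothelial markers were also the lowest of its group (2614 FPKM, against 3645 and 3340 in the others) and the summed leukocyte markers the highest (674 FPKM, against 308 and 410), and their part in the member values was not tested.

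The loxP/loxP mice under 2 mg/kg LPS can be set beside the WT groups only as levels, since the 2 tables were normalized separately and dose, genotype and tamoxifen differ. The loxP/loxP range lay under the saline range for Plcg1, Plcb3, Adcy4, Adcy6, Adcy8 and Adcy9 and over it for Plcg2, and overlapped it for the other 3. Over all 14893 genes tested in the WT groups, the loxP/loxP range lay under the saline range in 17.6% and over it in 22.9%. The saline and LPS values of the WT groups were used to choose the members, so nothing is read from counts against either range. Against the 10 mg/kg LPS range it overlapped for 8 genes, while Plcg2 lay under it (14.8 to 18.1 against 25.7 to 64.7 FPKM) and Adcy6 over it (7.55 to 8.05 against 3.20 to 7.07 FPKM), beside 8.42% and 7.24% of all genes. Within the PLC sum, Plcg1 took 23.5% ± 2.09 and Plcg2 18.5% ± 3.07 in loxP/loxP, and 23.9% ± 2.66 and 16.0% ± 6.76 in iΔEC/iΔEC. Of the 94 other pathway genes tested between the genotypes 0 were called, with a median log2 difference of 0.059.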

How the data were processed

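The authors aligned reads to GRCm38/mm10 with HISAT2 2.0.5 and counted them on genes with featureCounts 1.5.0-p3. Strandedness, trimming and annotation release are not given in the sources used here. They deposited FPKM values with gene lengths, in 1 table per experiment and 1 column per library. FPKM times length gave whole reads for 100% of values (relative tolerance 0.0001), and median-of-ratios factors of the first table were 1, so its FPKM were already scaled that way (0.998 to 1.00 in the second). In the second table, symbols of 11 genes had been altered, and those of the first were used. The 95% intervals come from the limma fit and carry the spread between libraries. Groups followed the labels.

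log2(FPKM + 1) was compared with limma 3.58.1 in R 4.3.3 (lmFit, eBayes with trend) within each table, for genes averaging 0.5 FPKM or more, and a gene was called if its Benjamini-Hochberg adjusted p did not exceed 0.05. The study's fold limit of 1 was read as a plain fold, which excludes nothing. The script was tested on simulated data. Permutation tests were exact and two-sided. Endothelial scaling used the mean log2 FPKM of the 10 endothelial markers. Python 3.11.15, pandas 2.3.3, numpy 2.4.6, scipy 1.17.1 and matplotlib 3.10.9 were used.

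The members and all lists were chosen with earlier results of these data known. Named were all members, the 2 called genes with the largest rise and fall per pathway list, the most abundant gene per marker list, and the 5 genes with the profiles most like Plcg1 and Plcg2. Some genes that this rule or the lists hold are not reported here. FPKM of members are described without a test in LPS against saline. In the second experiment deviations from the group means correlated at 0.177 to 0.248 across genes between libraries of the same number and at -0.14 to -0.0407 between others, so the numbers were taken as pairs, and a replicate block was fitted as an alternative. Deviations within a group sum to 0, so the negative correlations are tied to the positive ones and add little to them. The labels do not say what the numbers mark. Protein sequences were not used here.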

Additional observations from a re-analysis of the deposited data

Results flagged for a closer look

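Of 40 group values examined (the 10 members and the 10 marker lists in saline and in LPS), 3 held a library far from the others, where chance gives about 2, or 1 in 20. Plcb2 in saline 1 was at 4.23 FPKM, and the other saline libraries were at 9.87 to 10.5 FPKM. The lymphocyte markers of saline 3 had a mean log2(FPKM + 1) of 1.72, against 3.18 to 3.31 in the others, and its fibroblast markers were at 2.21, against 2.70 to 2.77.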

How the results depend on the processing

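On the deposited scale, with other filters or pseudocounts, with scaling to total reads, with quantile normalization, with limma-voom and without any single library, 9 members were lower and 1 higher in LPS. Values moved by over 1.5 times for Adcy4 (-1.19) and Plcb3 (-1.12) with quantile normalization, for Adcy9 (-1.38) and Adcy8 (-2.54) with limma-voom, for Adcy8 (-2.25) with a pseudocount of 0.1 and for Plcb1 (-0.43) without saline 1. Scaling on the endothelial markers moved the median of all genes to 0.57 and reversed Plcb2 (0.057), Plcb3 (0.0062) and Adcy4 (0.098). There 7285 genes were called higher and 784 lower, and 30 pathway genes higher and 9 lower. With an absolute log2 difference of at least 1 the calls were 1768 higher and 1011 lower, and 14 pathway genes higher and 14 lower. Scaling to total reads gave 3464 higher and 4678 lower, quantile normalization 3570 and 4295, and limma-voom 4049 and 3998. Without single libraries the calls were 3815 to 4606 higher and 2890 to 3766 lower, and 18 to 23 and 39 to 48 pathway genes.

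For iΔEC/iΔEC against loxP/loxP, endothelial scaling reversed Plcg1 (-0.086), Plcb3 (-0.075) and Adcy6 (-0.13), and moved Plcg2 to -0.37, Plcb1 to -0.34, Plcb2 to -0.30, Plcb4 to 0.12, Adcy4 to 0.028 and Adcy9 to 0.012. Values also moved by over 1.5 times for Plcg1 (0.092), Plcb1 (-0.18), Plcb2 (-0.16), Plcb3 (0.11) and Adcy6 (0.042) with scaling to total reads, for Plcb1 (-0.17) with limma-voom and for Adcy9 (0.28) with a pseudocount of 0.1. Leave-one-out ranges crossed 0 for Plcg2 (-0.42 to 0.13, positive without iΔEC/iΔEC 1), Plcb1 (-0.38 to 0.19, positive without loxP/loxP 3, at 0.13, or iΔEC/iΔEC 2) and Plcb2 (-0.30 to 0.013, positive without loxP/loxP 3). Without crossing 0, single libraries moved Plcg1 (0.020 without loxP/loxP 2 to 0.25 without iΔEC/iΔEC 2), Plcb3 (0.10 without iΔEC/iΔEC 3 to 0.30 without iΔEC/iΔEC 2), Adcy6 (0.018 without iΔEC/iΔEC 1 to 0.24 without iΔEC/iΔEC 2) and Adcy9 (0.0016 without loxP/loxP 2 to 0.43 without loxP/loxP 3) by over 1.5 times. The cause was not tested. No setting called a gene.

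The replicate block left 0 calls there (1150 genes at an unadjusted p under 0.05, beside 663 without it). In the first experiment the numbers did not pair the libraries, with correlations of -0.209 to 0.0972 at the same number and -0.156 to 0.289 otherwise. The block gave 3438 genes higher and 2561 lower, with 18 and 34 pathway genes. In the second experiment it changed no call. Depth limits Adcy8, on 20 to 90 reads in the second experiment, and 3 libraries per genotype limit every interval there.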
